A study of Rattus norvegicus with 6 samples.

Results

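Annexins are proteins that attach to acidic phospholipids of membranes when calcium rises. They share a folded core that carries the calcium sites and differ in an N-terminal tail that binds partner proteins, among them small S100 proteins. They take part in vesicle fusion, membrane repair, the anchoring of the actin cortex and, outside the cell, in signals that restrain leukocytes. In the collecting duct, Anxa2 and Anxa4 are known from work on the vesicles that carry the water channel Aqp2. The transcripts of this family were followed here in 2 cell fractions of the rat renal inner medulla. Members were all probe sets (groups of probes for 1 transcript) annotated with a single symbol among 10 listed annexin genes. The rule found 15 probe sets of 9 genes, out of 31042 probe sets of 14217 genes in all. Anxa13 had 0 such probe sets and was not analysed here. Anxa3 had 4, Anxa2, Anxa4 and Anxa7 had 2 each, and the other 5 genes had 1.

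Each fraction was measured on 3 Affymetrix rat expression arrays. The animals were 7 male Sprague-Dawley rats, and all had been given 1 mg of the loop diuretic furosemide by the intraperitoneal route 30 min before they were killed. Collagenase B and hyaluronidase were used to break up the inner medulla, over 75 min at 37 °C. Slow centrifugation then enriched the inner medullary collecting duct cells in 1 fraction (IMCD), and the cells of the supernatant made up the other fraction (nonIMCD). IMCD replicate 1 carries an age of 6 weeks and the remaining 5 arrays one of 10 weeks. The labels do not say how many rats each array pools. The p-values therefore measure the spread between these preparations. The series text speaks of pairs of fractions, but the labels do not say which arrays form a pair. The reported fit leaves pairs out, and a fit with the replicate number as a block was also run. The nonIMCD fraction is a mixture of cell types, and in such bulk RNA fewer cells of a type and less RNA per cell cannot be told apart.

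The values are deposited intensities, the brightness of a probe set on a linear scale. Each array had been scaled to 1 trimmed mean, so a difference is relative to the average of the array. Intensities of different probe sets are not compared with each other, because probe sets differ in their response. Differences are given as IMCD minus nonIMCD on the scale of log2(intensity + 16) with the standard error (SE) of the fit. The tests are limma's moderated test with Benjamini-Hochberg adjustment over all 31042 probe sets, and a difference was called at an adjusted p under 0.05. Where a gene had several probe sets, the brightest stood for it in counts of genes.

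The family divided between the fractions. Anxa8, Anxa1 and Anxa7 were higher in IMCD, by 5.70-fold, 3.07-fold and 1.50-fold, and Anxa3 was lower there by 8.72-fold. Anxa2, Anxa4, Anxa5, Anxa6 and Anxa11 did not pass in their brightest probe sets, although a second Anxa4 probe set was higher in IMCD. Of 9 genes, 3 were called higher, against 10.0% of all genes, and 1 was called lower, against 15.7% of all genes. The median difference over the 9 genes was 0.37, and it was -0.09 over all 14217 genes. The arrays of the fractions did not overlap for 7 of the 9 genes, and they did not overlap for 48.7% of all genes. Counted by probe set, 4 of 15 were higher and 3 of 15 were lower, against 8.58% and 13.4% of all probe sets and 22.0% in either direction. The arrays did not overlap for 11 of 15 annexin probe sets, and for 42.2% of all probe sets. The 3 lower probe sets were all of Anxa3, so they are not separate genes.

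**Figure D1:**
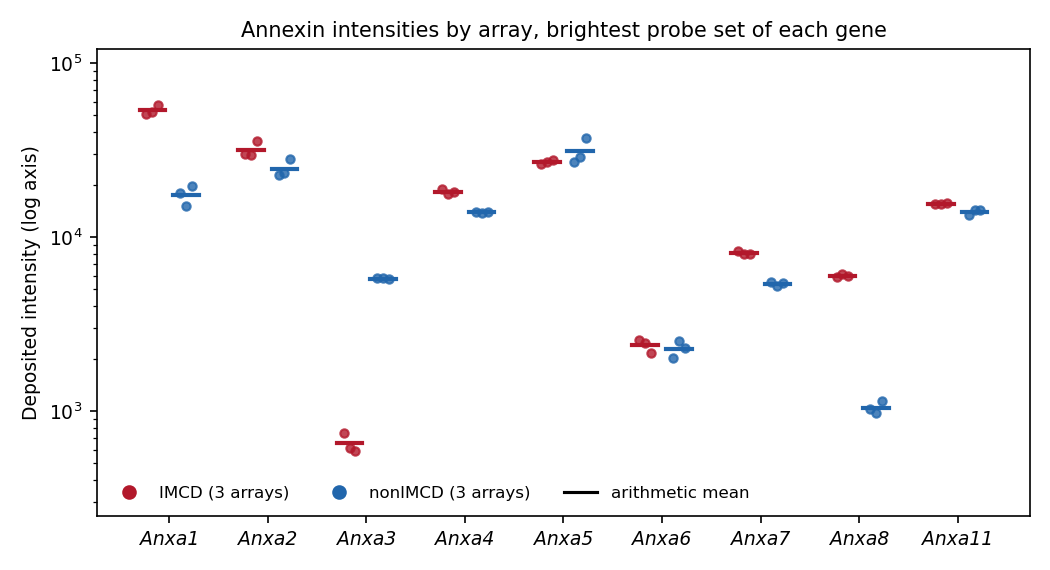
Deposited intensity (log axis) of the brightest probe set of the 9 measured annexin genes, with 1 point per array and a line at the arithmetic mean of 3 arrays, IMCD in red and nonIMCD in blue. Anxa1 and Anxa8 stand higher on all 3 IMCD arrays, Anxa3 stands higher on all 3 nonIMCD arrays, and the points of Anxa5 and Anxa6 overlap.

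The annexin genes whose brightest probe set passed are shown with the 250 bases before the start given by RefSeq (build GRCr8), because they are the members that separated the fractions. Promoters were matched by symbol for 8 of the 9 measured genes. Each sequence is written in the direction of the gene, and capitals mark matches to 8 short motifs searched on both strands. The TATA box was searched as TATAAA, the box named for its letters as CCAAT, and the GC box as GGGCGG. The AP-1 motif was searched as TGANTCA, the cyclic AMP element as TGACGTCA, the motif of GATA factors as AGATAA, that of ETS factors as CCGGAAG and the E-box as CACGTG. None of the matches overlapped another in these sequences.
Anxa8, chr16:9403137-9403386, plus strand: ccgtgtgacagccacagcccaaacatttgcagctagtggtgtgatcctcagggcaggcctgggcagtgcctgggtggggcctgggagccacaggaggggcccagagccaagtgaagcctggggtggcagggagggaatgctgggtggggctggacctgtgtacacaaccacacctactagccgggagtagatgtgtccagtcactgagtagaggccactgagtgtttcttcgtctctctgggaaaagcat
Anxa1, chr1:227303733-227303982, minus strand: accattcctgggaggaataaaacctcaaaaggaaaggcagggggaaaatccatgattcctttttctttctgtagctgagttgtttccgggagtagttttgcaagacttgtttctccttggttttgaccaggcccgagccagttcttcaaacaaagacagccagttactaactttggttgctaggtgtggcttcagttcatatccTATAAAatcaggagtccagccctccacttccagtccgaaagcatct
Anxa7, chr15:3870790-3871039, plus strand: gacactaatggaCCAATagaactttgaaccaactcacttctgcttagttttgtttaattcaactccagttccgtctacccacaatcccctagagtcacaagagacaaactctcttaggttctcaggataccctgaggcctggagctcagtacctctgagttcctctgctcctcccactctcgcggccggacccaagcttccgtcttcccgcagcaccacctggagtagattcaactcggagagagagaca
Anxa3, chr14:13085598-13085847, minus strand: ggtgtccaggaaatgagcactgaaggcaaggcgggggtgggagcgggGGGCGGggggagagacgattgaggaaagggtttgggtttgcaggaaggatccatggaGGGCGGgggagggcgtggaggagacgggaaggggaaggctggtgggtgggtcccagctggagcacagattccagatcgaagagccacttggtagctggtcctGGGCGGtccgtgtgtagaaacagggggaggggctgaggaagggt

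The 3 promoters of the higher genes had no searched motif in common. Anxa1 held TATAAA, whose first base lay 46 bases before the start, and 12.9% of 33465 RefSeq promoter windows of this length held TATAAA on either strand. Anxa7 held 1 CCAAT, found in 34.0% of windows, and Anxa8 held none of the 8 motifs. Anxa3 held 3 copies of GGGCGG, found in 30.5% of windows. Members that did not pass held these motifs too: GGGCGG in Anxa2, Anxa4, Anxa5 and Anxa11, TATAAA in Anxa2, and CCAAT in Anxa4. The share of G and C was 60.4% in Anxa8, 45.2% in Anxa1, 50.8% in Anxa7 and 64% in Anxa3, beside a median of 51.2% over all windows. A match or its absence describes these letters only.

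Anxa8 had the largest difference toward IMCD among the members. This annexin binds late endosomes and is found in several epithelia. Its intensities were 5912, 6143 and 5947 on the IMCD arrays and 1019.9, 968 and 1139.9 on the nonIMCD arrays. The 3 IMCD arrays lay close together and far above the nonIMCD arrays, with no overlap. The difference was 2.51 ± 0.12 (SE, n = 3 per fraction, limma adjusted p = 0.000303), and 0.232% of all genes had a more positive one. Leaving out 1 array at a time gave 2.46 to 2.58. The genes whose centred profiles over the 6 arrays lay nearest to that of Anxa8 were En2 and Elf5, at root mean square distances of 0.08 and 0.10 on the log2 scale. Elf5 and En2 both encode transcription factors, and Elf5 is known from collecting duct principal cells. They differed by 2.56 and 2.51 between the fractions. A near profile already requires a similar difference, so these values are no separate evidence on Anxa8.

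Anxa1 followed. Its protein, also secreted, acts on formyl peptide receptors and restrains the recruitment of neutrophils, and it was first described as an inhibitor of phospholipase A2 activity. Intensities were 51064, 52236 and 57608 in IMCD and 17954, 15063 and 19530.1 in nonIMCD. All IMCD arrays were brighter than every nonIMCD array. The IMCD values lay toward the top of the scale, since the highest intensity on any array was between 70016 and 111657. The difference was 1.62 ± 0.15 (SE, limma adjusted p = 0.00147), and it ranged from 1.52 to 1.70 without 1 array. A more positive difference was found for 1.79% of all genes. The nearest profiles were those of Lgals3, which encodes galectin-3, at 0.05, and of the coat protein gene Sec24d at 0.06, among 13982 genes compared over 6 arrays.

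Anxa7, an annexin with a long N-terminal tail that promotes calcium-dependent membrane fusion and binds sorcin, differed less. Its brightest probe set read 8267, 8013 and 7968 in IMCD and 5525, 5235 and 5415 in nonIMCD. The fractions did not overlap, and both were tight, with an SD of 162 around the IMCD mean of 8083 and of 146 around the nonIMCD mean of 5392. The difference was 0.58 ± 0.11 (SE, limma adjusted p = 0.0163). With the replicate number as a block in the fit, it did not pass (adjusted p = 0.0535). Anxa7 no longer passed when IMCD replicate 1 was left out (0.57, adjusted p = 0.0636), IMCD replicate 2 (0.59, adjusted p = 0.0543), nonIMCD replicate 1 (0.60, adjusted p = 0.0526) or nonIMCD replicate 2 (0.56, adjusted p = 0.0513). The second, dimmer Anxa7 probe set read 532, 543 and 651 in IMCD and 521, 435 and 527 in nonIMCD. It differed by 0.21 (95% interval -0.16 to 0.58, adjusted p = 0.372). Several Anxa7 and Anxa2 pseudogenes are listed in RefSeq, and whether probes of these genes also read them was not tested.

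Anxa4, an epithelial annexin that forms lattices on membranes, had probe sets on both sides of the threshold. The brighter one read 18974, 17731 and 18028 in IMCD and 13859, 13723 and 13907 in nonIMCD. All IMCD arrays were brighter, and the difference of 0.40 ± 0.11 (SE, limma adjusted p = 0.0536) did not pass. The other Anxa4 probe set read 12925, 12844 and 12726 in IMCD and 7265, 7439 and 8653 in nonIMCD. It was higher in IMCD by 0.72 ± 0.13 (adjusted p = 0.0124), 1.65-fold, and stayed past the threshold in all 13 alternative settings run. Anxa4 was thus higher by one probe set and short of the threshold by the other. The brighter probe set passed in 4 of 13 alternative settings, with adjusted p = 0.00399 to 0.288.

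Anxa3 was the one member called lower in IMCD. It is abundant in neutrophils and other myeloid cells, where it binds granules, and is also expressed by some epithelia and vessels. The brightest of its 4 probe sets read 749, 615 and 587 in IMCD and 5812, 5779 and 5705 in nonIMCD. The nonIMCD arrays agreed within an SD of 54.4 around 5765, and every IMCD array was far below them. The difference was -3.13 ± 0.14 (SE, limma adjusted p = 0.000256), and 1.67% of all genes had a more negative one. Without 1 array it ranged from -3.23 to -3.06. The nearest profiles were those of the ceramide kinase gene Cerk at 0.09 and of the inositol transporter gene Slc2a13 at 0.09.

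The other Anxa3 probe sets divided. One read 59.7, 38.9 and 13.1 in IMCD and 457, 456 and 297 in nonIMCD, a difference of -3.06 ± 0.39 (SE, limma adjusted p = 0.00406). Its IMCD values lay within the range of the 3 negative control probe sets, whose highest value was 78.4, so its size depends on the pseudocount, from -3.61 with 1 to -2.21 with 64. Another, whose name ending marks probes shared by more than 1 transcript, read 211, 269.5 and 133 in IMCD and 641, 662 and 684 in nonIMCD (-1.67 ± 0.25, adjusted p = 0.00752). The remaining one read 456, 264 and 423 in IMCD and 403, 448 and 392 in nonIMCD, and here the fractions overlapped (-0.15, 95% interval -0.71 to 0.41, adjusted p = 0.687). For the brightest and this last probe set the differences were 2.97 apart on the log2 scale. An exact two-sided permutation test of that gap gave p = 0.1, the smallest that 3 against 3 arrays allow (adjusted p = 0.129 over 9 pairs of probe sets of 1 gene). The gap is larger than the spread between arrays, whose SD was 0.37 in IMCD and 0.09 in nonIMCD. Pairs with the dim probe set at -3.06 are not read, since the pseudocount sets its size.

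**Figure D2:**
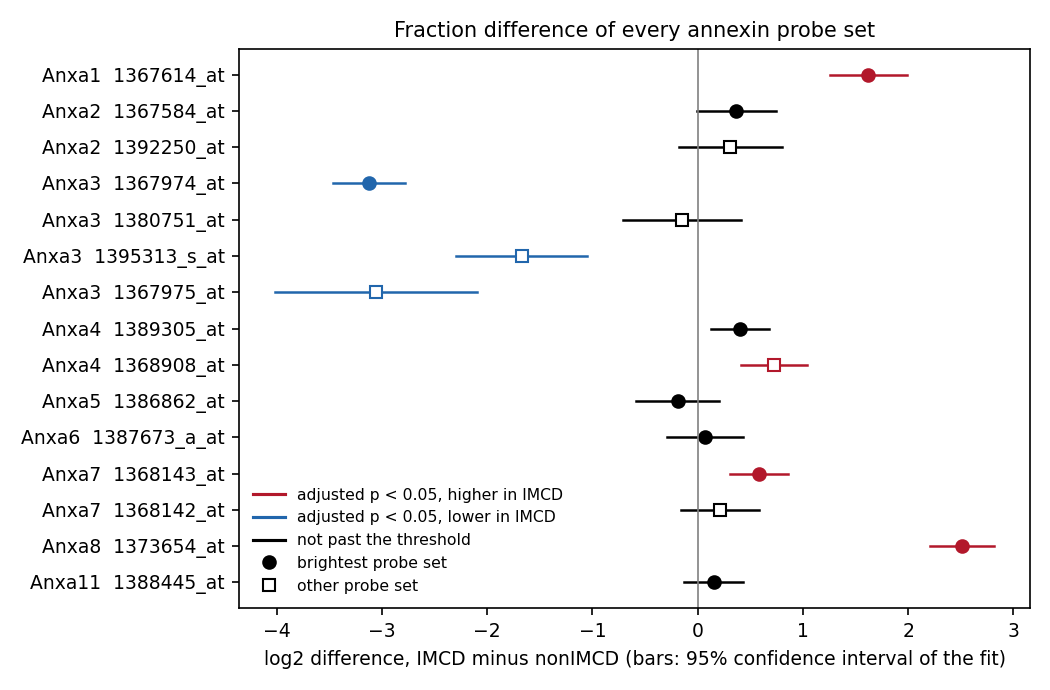
Log2 difference between the fractions (IMCD minus nonIMCD) for all 15 annexin probe sets, with the 95% confidence interval of the fit. Anxa8 at 2.51 and Anxa1 at 1.62 lie to the right, 3 of the 4 Anxa3 probe sets lie between -3.13 and -1.67, and the remaining one lies at -0.15.

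Anxa2 forms a complex with S100a10 that links membranes to actin and binds plasminogen at the cell surface. Its brightest probe set read 30118, 29747 and 35481 in IMCD and 22566, 23226 and 28208 in nonIMCD. The lowest IMCD array was above the highest nonIMCD array, with a narrow gap. The difference of 0.37 ± 0.15 (SE, 95% interval -0.01 to 0.74, limma adjusted p = 0.149) did not pass. A dim second Anxa2 probe set differed by 0.31 (95% interval -0.18 to 0.80, adjusted p = 0.325), and its fractions overlapped. Anxa2 was past the threshold with each array centred on its median (0.66, adjusted p = 0.0246) and with an intensity trend in the fit (adjusted p = 0.0407).

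Anxa5 binds phosphatidylserine on dying cells and is used to stain them. It read 26114, 27043 and 27624 in IMCD and 27043, 28919 and 37088 in nonIMCD. The nonIMCD values spread widely through replicate 3, and the fractions overlapped. The difference was -0.19 (95% interval -0.58 to 0.20, limma adjusted p = 0.451). It was -0.05 without nonIMCD replicate 3 and 0.10 after median centring, so its sign was not settled. Among the 9 genes, 6 had their highest nonIMCD value on replicate 3, and 36.6% of all probe sets did.

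Anxa6, an annexin with a doubled core that acts in endocytosis and cholesterol transport, overlapped between the fractions. It read 2540.4, 2469.9 and 2142 in IMCD and 2017, 2516 and 2306 in nonIMCD, a difference of 0.07 (95% interval -0.29 to 0.43, limma adjusted p = 0.791). Anxa11, whose long tail binds the calcium sensor Pdcd6 and RNA granules, read 15397, 15478 and 15629.7 in IMCD and 13303, 14207 and 14379.7 in nonIMCD. The IMCD arrays were all brighter, by 0.15 on average (95% interval -0.13 to 0.43, adjusted p = 0.397). Median centring called Anxa11 higher (0.44, adjusted p = 0.0352), whereas quantile normalization gave -0.04 (adjusted p = 0.829).

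Some members varied little between arrays of a fraction. The pooled SD was 0.03 on the log2 scale for the brightest Anxa7 probe set, and 0.04 for those of Anxa4 and Anxa11. Over all probe sets averaging above 8 on that scale, the median SD was 0.18, and 0.636%, 0.792% and 1.39% of them had a smaller SD. Limma drew these SDs toward the value common to all probe sets, so the SE of these genes was 0.11. Anxa1, Anxa2, Anxa5 and Anxa6 had SDs of 0.15 to 0.17.

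The deposited scaling fixed the reference for these differences. The median of all probe sets lay at -0.10, and it moved up by 0.29 under median centring and by 0.15 under quantile normalization. Of all calls, 39.0% were higher in IMCD with the deposited scaling, 67.0% with median centring and 52.0% with quantile normalization. Among the annexins, the split was 3 higher and 1 lower as deposited, 6 and 1 with median centring, and 3 and 1 with quantile normalization. Relative to the median of all probe sets, Anxa8 differed by 2.61, Anxa1 by 1.72, Anxa7 by 0.68 and Anxa3 by -3.03. Anxa1, Anxa8 and the brightest Anxa3 probe set were past the threshold, in 1 direction each, in all 13 alternative settings.

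**Figure D3:**
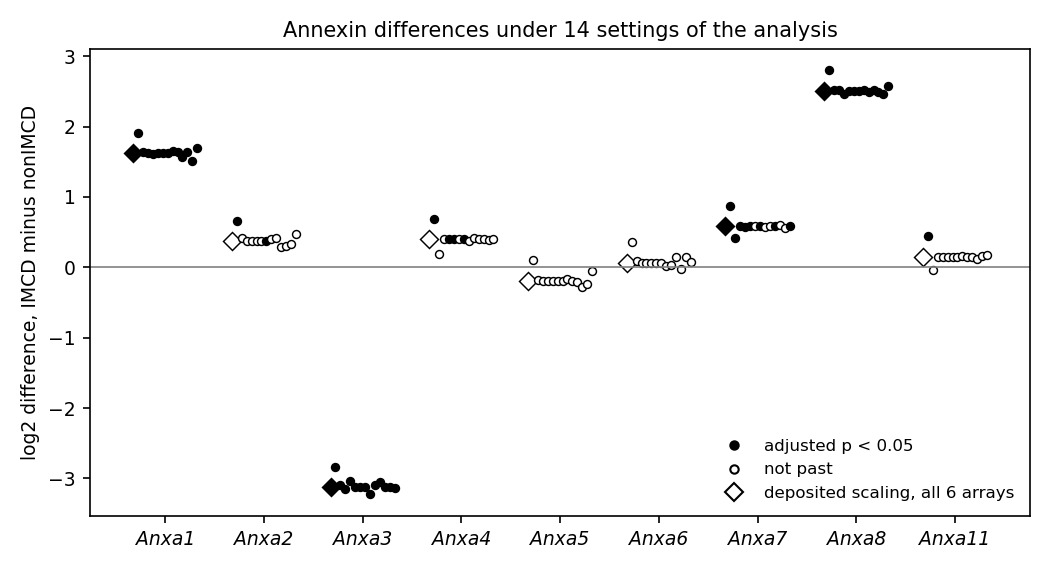
Log2 difference (IMCD minus nonIMCD) of the brightest probe set of each annexin gene in the fit as reported (diamond) and in 13 alternative settings (circles), filled where the adjusted p was under 0.05. Anxa1, Anxa3 and Anxa8 are filled throughout, Anxa7 in the reported fit and 8 alternatives, and Anxa5 and Anxa6 in none.

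Marker genes of most cell types listed for the inner medulla differed between the fractions. The counts are to be read beside the 10.0% of all genes called higher and the 15.7% called lower. Among 13 genes of collecting duct principal cells, 12 were higher in IMCD (median 1.39), and of 6 intercalated cell genes 3 were higher and 0 lower (median 0.97). The mean log2 level of the principal cell list ran from 13.09 to 13.21 in IMCD and from 11.47 to 11.82 in nonIMCD, so principal cell transcripts were measured in nonIMCD too. The genes lower in IMCD, as Anxa3 was, included 3 of 3 thin limb genes (median -3.48), 11 of 11 endothelial genes (median -1.99), 12 of 14 leukocyte genes (median -5.68) and 3 of 3 erythroid genes (median -4.10). Also lower were 3 of 6 thick ascending limb genes (median -1.35) and 6 of 11 interstitial and pericyte genes (median -1.84). Of 6 urothelial genes 1 was lower (median -0.35), a share near that of all genes. Among leukocyte genes 1 was higher, the B cell receptor gene Cd79b, named after its value was seen. The mean log2 level of the leukocyte list was 6.65 to 7.16 in IMCD and 11.57 to 12.03 in nonIMCD, that of the endothelial list 9.68 to 9.91 and 12.26 to 12.29, and that of the thin limb list 8.84 to 9.18 and 12.49 to 12.96. On all 3 IMCD arrays, 3 leukocyte genes and 1 thin limb gene did not exceed the highest negative control, whereas all 11 endothelial genes exceeded it there. A measure of RNA integrity moved too: the log2 ratio of 3' to 5' signal, averaged over Actb, Gapdh and hexokinase controls, had a mean of 0.68 ± 0.03 (SD, n = 3) in IMCD and of 1.33 ± 0.14 (SD, n = 3) in nonIMCD. The part of cell type makeup and of RNA integrity in the annexin differences was not tested.

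Genes that encode annexin partners were read in the same fit, in lists of S100 proteins, the plasminogen system, membrane repair and scaffold proteins, and phospholipases A2. Among 38 measured partner genes, 7 were higher and 8 lower, 23 did not pass, and the median was -0.02. Called genes made up 25.8% of all genes. The lists also named 7 genes of the formyl peptide receptor family, which includes receptors of Anxa1. Of these 7 genes, 0 had a probe set with a single symbol, and they were not analysed here.

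The S100 partners best known for binding annexins did not pass. S100a10, the partner of Anxa2, read 20103, 19772 and 22356 in IMCD and 20311, 18733 and 23270.0 in nonIMCD, a difference of 0.00 (95% interval -0.34 to 0.35, limma adjusted p = 0.995). S100a11, which binds Anxa1, differed by -0.02 (95% interval -0.40 to 0.35, adjusted p = 0.932). Both overlapped between the fractions, and their intensities were far above the negative controls. Those of S100a11 lay toward the top of the scale, at 49936 to 55998 in IMCD and 47167 to 62191 in nonIMCD. Of 11 S100 genes 3 were higher, 2 lower and 6 did not pass (median 0.00). S100a13, which acts in the release of growth factors, was higher by 1.15 ± 0.13 (SE, adjusted p = 0.00282). S100a4, known from motile cells, was higher by 0.93 ± 0.15 (adjusted p = 0.00989), with IMCD arrays at 50472 to 58116 and nonIMCD arrays at 25113 to 33016. The IMCD values of S100a4 also lay toward the top of the scale. S100a8, a subunit of neutrophil calprotectin, was lower (adjusted p = 0.00186), with 4.31 to 8.25 in IMCD and 79.3 to 158 in nonIMCD. Its IMCD values lay under the highest negative control of 78.4, and its lowest nonIMCD value was barely above it. The size therefore depends on the pseudocount, from -4.06 with 1 to -1.30 with 64. S100g, a calcium buffer of transporting epithelia, was lower (adjusted p = 0.0147) but dim in both fractions, at 24.4 to 29.9 and 58.7 to 85.3. Only 1 array exceeded the highest negative control for S100g, and the difference ran from -1.23 with a pseudocount of 1 to -0.51 with 64. S100g did not pass when IMCD replicate 2 was left out (adjusted p = 0.0527), with the replicate number as a block (0.0597) or with an intensity trend (0.11).

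Of 8 plasminogen genes 1 was higher, 2 were lower and 5 did not pass (median -0.71). Plaur, the urokinase receptor, read 5916, 3691 and 5593 in IMCD and 759, 874 and 1033 in nonIMCD. It was higher by 2.47 ± 0.23 (SE, limma adjusted p = 0.00157), and its dimmer probe set also was (adjusted p = 0.00221). Plau, which encodes urokinase itself, went the other way, with 4770.1, 4232 and 4608 in IMCD and 18916, 29563 and 20352 in nonIMCD (-2.31 ± 0.20, adjusted p = 0.00127). Receptor and ligand therefore stood higher in opposite fractions, with no overlap of arrays for either. Serpine2, a protease inhibitor, was lower, at -1.31 ± 0.25 (adjusted p = 0.0175), and did not pass when any of 3 arrays was left out, namely IMCD replicate 1 (adjusted p = 0.0588), nonIMCD replicate 1 (adjusted p = 0.0622) and nonIMCD replicate 3 (adjusted p = 0.0539).

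Of 13 membrane repair and scaffold genes 3 were higher, 3 lower and 7 did not pass (median -0.05). The caveolar gene Cav2 was higher by 1.49 ± 0.19 (SE, limma adjusted p = 0.004) and the calcium protease gene Capn1 by 1.05 ± 0.12 (adjusted p = 0.0027). Msn, which encodes moesin, the actin linker of leukocytes and endothelium, had 1261 to 1474 in IMCD and 12527 to 15090.1 in nonIMCD (-3.37 ± 0.14, adjusted p = 0.000228). Dysf, the membrane repair gene dysferlin, was lower, at -1.58 ± 0.19 (adjusted p = 0.00347). Sorcin (Sri), a partner of Anxa7, had 0.40 for the brightest probe set (adjusted p = 0.0719) and 0.80 for the other (adjusted p = 0.0152), and was named after its values were seen. Of 6 phospholipase A2 genes 1 was lower, Pla2g2a, with 6.88 to 9.60 in IMCD and 172 to 519 in nonIMCD (adjusted p = 0.00208). The IMCD values of Pla2g2a lay under the highest negative control. The cytosolic Pla2g4a, whose activity Anxa1 was described to inhibit, differed by -0.02 (95% interval -0.34 to 0.30, adjusted p = 0.931).

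**Figure D4:**
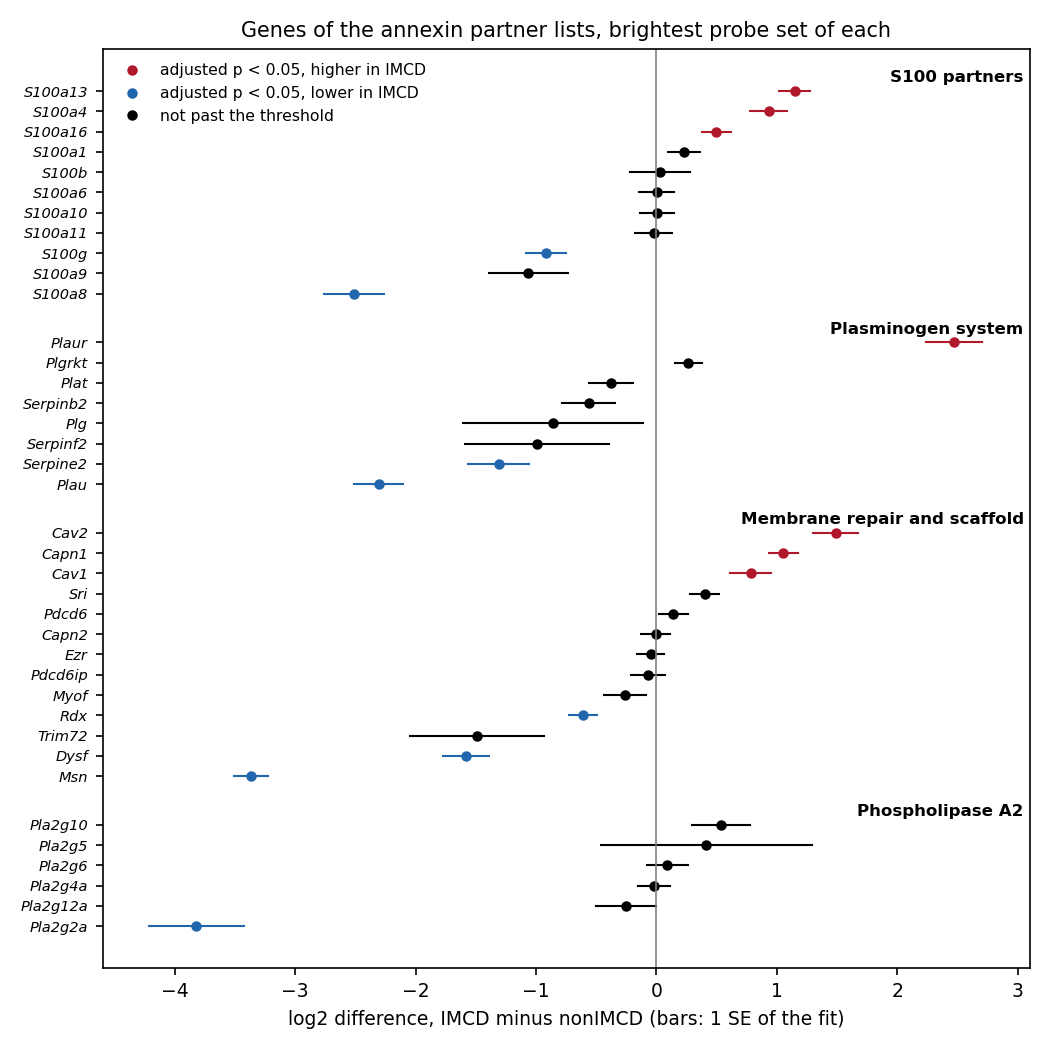
Log2 difference (IMCD minus nonIMCD, with 1 SE) of the 38 measured genes of the 4 partner lists, red where higher and blue where lower at an adjusted p under 0.05. Plaur at 2.47 and Plau at -2.31 lie at opposite ends of the plasminogen list, and S100a10 and S100a11 lie at 0.00 and -0.02.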

How the data were processed

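RNA of 2 fractions of rat inner medulla was measured on 6 arrays, 3 per fraction. Arrays were assigned by their titles. The deposited values are linear intensities that the authors had scaled to 1 trimmed mean per array (1000.3 to 1000.4, with 2% trimmed at each end). No source used here names the software. An array took about 3 µg of total RNA, per the labels, and the number of arrays limits the precision.

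The 57 control probe sets were left out and 31042 were tested as log2(intensity + 16) with limma 3.58.1 in R 4.3.3 (lmFit, eBayes, no covariate, no filter on low values), tested on simulated data. Symbols came from the platform annotation, updated by gene identifier through RefSeq (GRCr8). 20826 probe sets had 1 symbol, 436 several and 9780 none. Negative controls were the 3 trp probe sets.

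The members, partner lists, marker lists and alternatives were chosen with earlier results of these data known. Named by rule were all members, up to 2 called genes per direction and partner list, S100a10 and S100a11, and the 2 nearest profiles per member. The nearest profiles were found for each measured member and are given for Anxa8, Anxa1 and Anxa3 only. Cd79b, Sri and Pla2g4a were named outside this rule. Alternatives covered scaling, pseudocount, dim probe sets, an intensity trend, the replicate block and each array left out. Promoter sequences are from RefSeq.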

Additional observations from a re-analysis of the deposited data

How the results depend on the processing

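With 13 alternative settings for each of the 15 annexin probe sets, 183 comparisons kept their side of the threshold, 7 gained a call, 5 lost one and 0 reversed a called difference. The annexin genes called higher numbered 3 as reported, 6 with median centring and 5 with an intensity trend, and 2 to 3 without 1 array, with 1 called lower throughout. Partner genes called without 1 array numbered 5 to 6 higher and 6 to 9 lower, against 7 and 8. Over all probe sets, 2663 were higher and 4163 lower as reported, and 5389 and 2652 with median centring. They numbered 3721 and 5204 with an intensity trend, and 1537 to 2248 and 2647 to 3221 without 1 array. The mean over the probe sets of a gene was -2.0 for Anxa3, 0.56 for Anxa4 and 0.40 for Anxa7.

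The series text speaks of pairs of fractions. Both fractions carry the same replicate numbers, but whether a number marks a pair is not given. Deviations of same-numbered arrays correlated at 0.04, 0.04 and 0.06, each the highest correlation of that array with the other fraction. These correlations are small, and centring within each fraction ties them to each other, so they cannot settle the pairs. The correlations are only a hint from the data as to which arrays form a pair, which the labels do not give. The age labels of the arrays numbered 1 differ, at 6 weeks in IMCD and 10 weeks in nonIMCD. With the replicate block, 2 annexin genes were higher and 1 lower (Anxa7 adjusted p = 0.0535), 5 and 7 partner genes were, and 1831 and 2993 of all probe sets were. Leaving out dim probe sets, whose signal lies near the negative controls, gave 4 higher annexin genes and 1 lower. Calls rose over all the probe sets kept as well, to 3365 higher and 4949 lower.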

Other observations

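Anxa9, an annexin outside the listed genes, had 2 probe sets. They read 192 to 313 and 553 to 792 on the IMCD arrays, and 261 to 436 and 886 to 1148 on the nonIMCD arrays. The differences were -0.40 ± 0.26 and -0.47 ± 0.20 (SE, limma adjusted p = 0.334 and 0.156).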
